A study of Homo sapiens with 4 samples.

Results

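The 52 genes described here encode proteins that repair DNA or signal its damage, and were chosen by name from the repair pathways, with earlier results of these data known. They were followed in SW620, a cell line grown from a metastatic colon adenocarcinoma, on 4 Affymetrix arrays. A CD133+ clone on 2 arrays (replicates 1 and 2) was set against a CD133- clone on 2 arrays (replicates 1 and 2). The clones are named CPC1 (CD133+) and CNC1 (CD133-) in the labels. They were grown from single cells sorted for the presence or absence of CD133, a surface protein encoded by PROM1, and were sorted for it once more ahead of the RNA extraction, with no drug or other treatment named. With 1 clone a group, an effect of CD133 status cannot be told apart from a difference between clones. The labels do not describe separate cultures for the arrays, so the p-values cover only the spread from array to array, which may be technical. Of the 52 genes, 48 had at least 1 probe set that the platform annotation assigns to that gene alone, and all 48 passed the filter on low signals, among 15821 tested of 19777 named genes. PMS2, BRCA2, FANCA and FANCD2 were not analysed here.

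Cells repair DNA by several routes. Nucleotide excision repair cuts out bulky lesions such as those left by ultraviolet light or platinum drugs, base excision repair replaces single damaged bases, and mismatch repair corrects replication errors. Double-strand breaks are rejoined directly by end joining or copied from the sister chromatid by homologous recombination. The kinases ATM and ATR sense breaks and stalled replication and pass the signal to CHEK2 and CHEK1, which halt the cell cycle. In colon cancer these routes are known for mismatch repair defects and for the response to irinotecan, oxaliplatin and fluorouracil.

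A few facts of the arrays bear on all results. PROM1 had a log2 signal of 8.46 and 8.73 on the CD133+ arrays against 3.31 and 3.35 on the CD133- arrays, as the labels have it. Replicate arrays correlated across genes at r = 0.992 in each clone, and arrays of different clones at 0.977 to 0.988. For ACTB the 3' probe set exceeded the 5' one, a measure of how intact the RNA is, by 0.71 and 1.92 log2 units in CD133+ against 1.18 and 0.92 in CD133- cells, with CD133+ replicate 2 apart from the others. For GAPDH the same excess was 0.0967 and 0.0899 in CD133+ against 0.0169 and 0.0260 in CD133- cells, where that array did not stand apart from its replicate. The upper quartile of the values before normalization was 6.70 and 6.61 in CD133+ against 6.91 and 6.71 in CD133- cells, highest for CD133- replicate 1. Of 9 markers of colon epithelium, 8 were above the low-signal filter and 1, KRT20, a differentiation marker, was below it, and EPCAM, KRT8, KRT18 and KRT19 had log2 signals between 11.95 and 14.18 on every array. The log2 of the summed signal of these 9 was 15.30 to 15.31 in CD133+ and 15.38 to 15.42 in CD133- cells. That of 6 fibroblast markers was 8.19 to 8.35 in CD133+ and 8.31 to 8.37 in CD133- cells. That of 3 endothelial markers, of which CDH5 was below the filter, was 6.31 to 6.65 in CD133+ and 6.20 to 6.49 in CD133- cells. That of 2 leukocyte markers, of which PTPRC was below it, was 4.95 to 5.01 in CD133+ and 4.71 to 4.87 in CD133- cells. None of the 17 markers tested passed in limma, and 4 of them, all of colon epithelium, had an unadjusted p under 0.05. Over all genes 20.6% had such a p.

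In all, 6 genes differed between the clones at a limma adjusted p under 0.05, called changed below. PMS1, XRCC4, XRCC5, CDK7 and RAD17 were lower and POLM was higher in CD133+ cells, by 1.39-fold to 1.96-fold. These 6 were 12.5% of the 48 genes tested, where 3.65% of all tested genes were called. That background is not matched for signal level. In a fit to genes above the median level, 6.73% of all genes and 7 of the 44 members there were called. The median standard error was 0.153 over the 48 genes against 0.178 over all genes. The 5 lower genes stand beside a background of 2.34% and the 1 higher gene beside 1.31%. At an unadjusted p under 0.05 there were 19 of the 48 genes, 39.6%, against 20.6% of all genes. The arrays of the clones did not overlap for 31 of the 48 genes, 64.6%, against 51.6% of all genes. The median log2 difference (CD133+ minus CD133-, as throughout) was -0.07 over the 48 genes, 30 of them negative, and 0.06 over all genes. With centred arrays these medians were -0.29 and -0.05, and in the deposited values -0.21 and 0.03. In bulk RNA, fewer cells that express a gene and less RNA per cell cannot be told apart. The 6 calls depended on single CD133- arrays and on how limma models the variance. Without CD133- replicate 1 there were 0 calls among the 48 genes (124 among all genes), without CD133- replicate 2 there were 2, PMS1 and POLM. An analysis by limma without its variance trend made 0 (12 among all genes). Scaling also moved the balance: 35.9% of all called genes were higher in CD133+ cells after quantile normalization, 21.1% in the values as deposited and 11.2% after centring each array on its median, with 1 higher and 5 lower, 1 higher and 4 lower, and 0 higher and 6 lower repair genes in the same order.

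**Figure D1:**
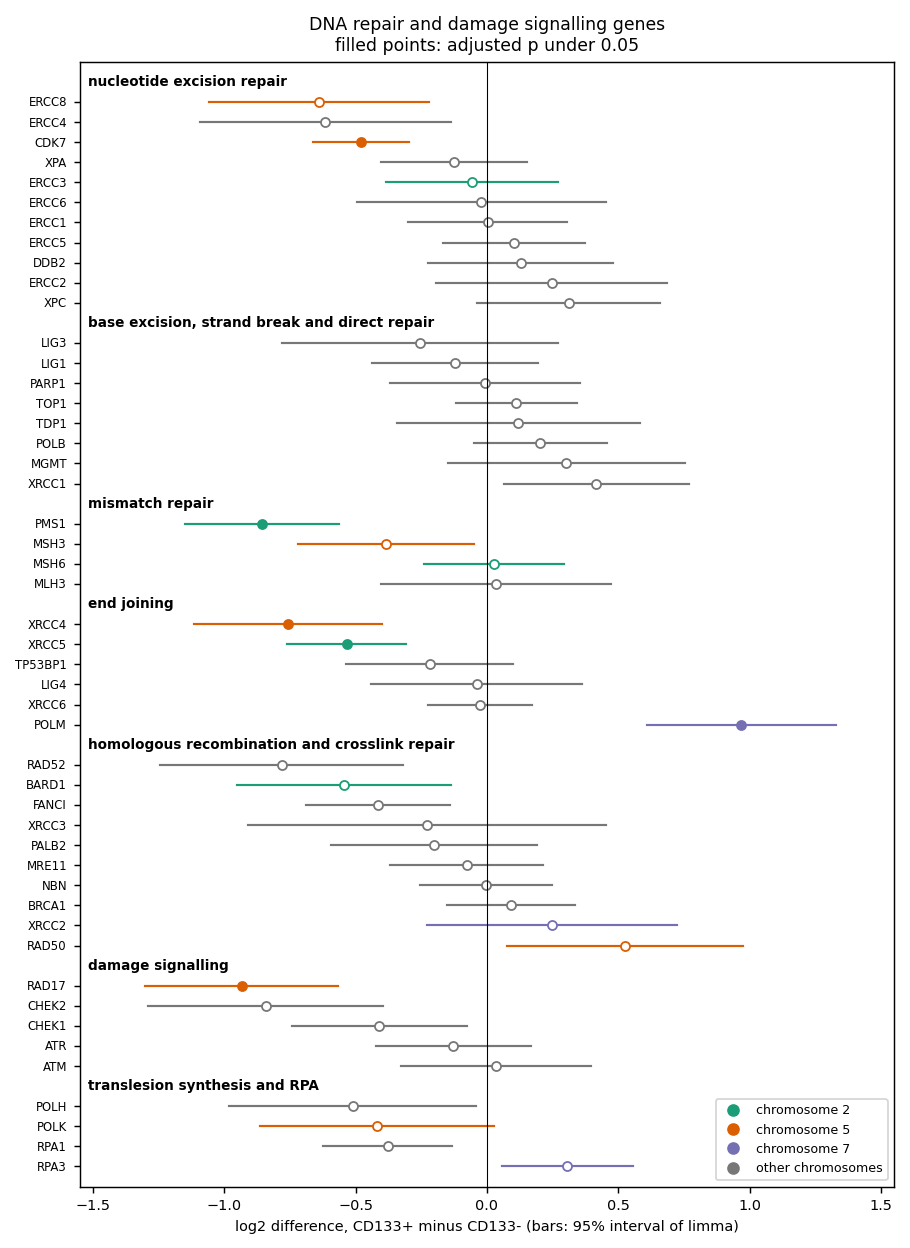
Log2 difference of each of the 48 repair genes (horizontal axis, CD133+ minus CD133-) with its 95% interval from limma, grouped by role and ordered by size within a role. Filled points mark the 6 genes called at an adjusted p under 0.05, and all 6 lie on chromosomes 2, 5 and 7 (coloured); grey genes lie elsewhere.

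All 6 called genes lay on 3 chromosomes. The promoters of PMS1, XRCC4, CDK7, RAD17 and POLM, taken from RefSeq (GRCh38.p14), are printed to show the start regions of the called genes other than XRCC5. Each runs from 250 bases before to 50 bases after the start listed first for the gene, 5' to 3' on the gene's strand. Capitals mark matches on either strand to 3 short motifs, the CCAAT box (CCAAT), the GC box (GGGCGG) and an E2F-type site (TTTNNCGC), where N is any base.
PMS1 (chr2:189784200-189784499, plus strand): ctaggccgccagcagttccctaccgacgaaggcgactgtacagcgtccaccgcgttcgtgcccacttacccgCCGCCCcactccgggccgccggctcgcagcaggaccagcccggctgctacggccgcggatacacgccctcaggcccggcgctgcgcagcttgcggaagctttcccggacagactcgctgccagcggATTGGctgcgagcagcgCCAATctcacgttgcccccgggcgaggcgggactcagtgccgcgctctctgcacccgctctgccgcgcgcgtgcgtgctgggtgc
XRCC4 (chr5:83077297-83077596, plus strand): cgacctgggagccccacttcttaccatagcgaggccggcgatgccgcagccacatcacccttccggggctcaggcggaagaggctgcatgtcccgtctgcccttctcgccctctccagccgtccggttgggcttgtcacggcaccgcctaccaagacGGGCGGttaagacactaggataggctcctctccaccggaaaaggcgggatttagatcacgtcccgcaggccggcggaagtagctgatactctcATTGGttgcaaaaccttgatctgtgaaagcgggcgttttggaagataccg
CDK7 (chr5:69234636-69234935, plus strand): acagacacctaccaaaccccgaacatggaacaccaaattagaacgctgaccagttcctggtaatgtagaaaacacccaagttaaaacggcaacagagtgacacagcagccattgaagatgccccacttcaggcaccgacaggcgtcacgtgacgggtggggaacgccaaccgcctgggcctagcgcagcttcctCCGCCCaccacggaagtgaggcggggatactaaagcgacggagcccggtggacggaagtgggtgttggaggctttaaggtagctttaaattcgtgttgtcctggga
RAD17 (chr5:69369568-69369867, plus strand): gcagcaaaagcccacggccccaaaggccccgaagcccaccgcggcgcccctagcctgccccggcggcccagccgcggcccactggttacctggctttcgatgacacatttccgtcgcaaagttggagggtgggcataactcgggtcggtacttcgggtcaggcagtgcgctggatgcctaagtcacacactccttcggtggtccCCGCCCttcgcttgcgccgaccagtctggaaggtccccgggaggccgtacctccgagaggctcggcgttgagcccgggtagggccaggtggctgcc
POLM (chr7:44082481-44082780, minus strand): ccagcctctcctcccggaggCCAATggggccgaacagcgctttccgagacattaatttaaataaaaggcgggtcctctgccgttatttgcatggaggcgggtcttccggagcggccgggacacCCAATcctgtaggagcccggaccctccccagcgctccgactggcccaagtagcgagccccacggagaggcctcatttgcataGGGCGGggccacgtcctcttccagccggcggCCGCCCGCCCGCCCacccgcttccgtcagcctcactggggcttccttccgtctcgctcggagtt
The promoter of PMS1 held 2 CCAAT boxes and 1 GC box, that of XRCC4 1 of each, and those of CDK7 and RAD17 1 GC box and 0 CCAAT boxes. POLM, the gene that was higher, had 2 CCAAT boxes and 4 GC boxes, of which 3 overlap in 1 run. None of the 5 held the E2F-type letters. Over 27305 promoters of this length, 44.6% held a GC box, 35.7% a CCAAT box and 6.9% an E2F-type site. Among the 43 repair genes tested that had a promoter in the table these shares were 79.1%, 39.5% and 18.6%. The 43 genes had passed the low-signal filter, while the 27305 promoters were not chosen by signal, so the shares are not matched for it. A match is a run of letters and not a bound site.

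Mismatch repair genes were measured for 4 of 5 members, of which 1 fell (25% called, against 3.65% of all genes). PMS1, a MutL homologue on chromosome 2, had log2 signals of 7.94 and 7.80 on the CD133+ arrays against 8.77 and 8.69 on the CD133- arrays. Every CD133+ value was below every CD133- value. The gene fell by 0.86 on the log2 scale (SE 0.13, 1.81-fold, limma adjusted p = 0.0160). Of its 5 probe sets 4 had this sign, with differences from -1.24 to 0.11, and the mean over the 5 missed the threshold (-0.69, adjusted p = 0.0935). MSH3, which recognises larger insertion loops and lies on chromosome 5, had 7.45 and 7.63 in CD133+ against 7.93 and 7.92 in CD133- cells. The groups did not overlap, but the difference of -0.38 did not pass (SE 0.15, limma adjusted p = 0.188), and averaged over its 3 probe sets MSH3 was at -0.15. MSH6, which recognises single mismatches, had 8.94 and 8.83 in CD133+ against 8.92 and 8.79 in CD133- cells, with overlapping arrays and a difference of 0.03 (95% interval -0.24 to 0.29). Its sign turned with centred arrays and in the deposited values. MLH3, another MutL homologue, was at 0.03 with overlapping arrays.

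End joining had 3 of 6 tested genes called, the most of any route, with 2 lower and 1 higher. Over all genes 3.65% were called, and 12.3%, 8.94% and 7.53% on chromosomes 2, 5 and 7, where these 3 lie. XRCC5, the larger subunit of the Ku ring that caps broken ends (chromosome 2), had 11.37 and 11.10 in CD133+ against 11.77 and 11.77 in CD133- cells. It fell by 0.53 (SE 0.10, 1.45-fold, limma adjusted p = 0.0282), and its 3 probe sets agreed in sign, from -0.998 to -0.53. Its Ku partner XRCC6, on chromosome 22, had 12.04 and 12.05 in CD133+ against 12.17 and 11.97 in CD133- cells. The arrays of XRCC6 overlapped, and its difference of -0.03 had a 95% interval of -0.23 to 0.17, where that of XRCC5 ran from -0.76 to -0.31. The difference between the partners itself was not tested.

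XRCC4, the scaffold that holds the end-joining ligase (chromosome 5), had 7.59 and 7.30 in CD133+ against 8.25 and 8.16 in CD133- cells. It fell by 0.76 (SE 0.16, 1.69-fold, limma adjusted p = 0.0399), with all 4 probe sets negative (-0.87 to -0.24). This call was the least stable of the 6: the adjusted p was 0.0538 in the values as deposited, 0.0866 without CD133+ replicate 2 and 0.0916 with the mean of the probe sets. LIG4, the ligase bound by XRCC4 and encoded on chromosome 13, had 6.89 and 6.80 in CD133+ against 6.93 and 6.83 in CD133- cells. Its difference was -0.04 (95% interval -0.44 to 0.36). The interval of XRCC4, -1.12 to -0.40, overlapped that of LIG4, and the difference between these partners was not tested. POLM, a polymerase that fills gaps at ends (chromosome 7, 1 probe set), had 7.99 and 8.24 in CD133+ against 7.11 and 7.19 in CD133- cells. It rose by 0.97 (SE 0.16, 1.96-fold, limma adjusted p = 0.0198), the largest positive difference among the 48 genes. With each array centred on its median POLM was at 0.72 (adjusted p = 0.0808) and did not pass. TP53BP1, which steers breaks towards end joining, was at -0.22 and did not pass.

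**Figure D2:**
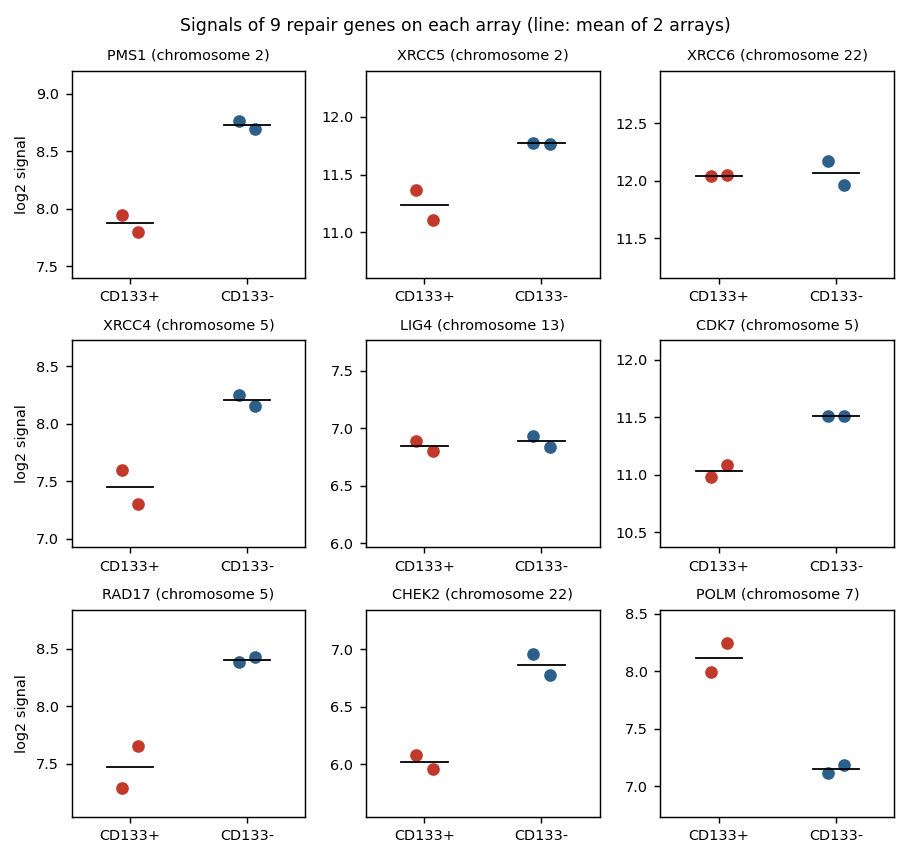
Log2 signal on each array (points) and group mean (line) for the 6 called genes and for XRCC6, LIG4 and CHEK2, CD133+ on the left and CD133- on the right, each axis spanning the same range of log2 units. XRCC5 and XRCC4 lay apart between the clones while the values of their partners XRCC6 and LIG4 overlapped. The difference between partners was not tested for either pair.

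Of the 11 nucleotide excision repair genes, 1 fell and 0 rose (9.09% called, against 3.65% of all genes). CDK7, the kinase of the TFIIH complex that opens DNA for transcription and repair (chromosome 5, 1 probe set), had 10.98 and 11.08 in CD133+ against 11.51 and 11.51 in CD133- cells, which quantile normalization had made equal. It fell by 0.48 (SE 0.08, 1.39-fold, limma adjusted p = 0.0212). ERCC8, a subunit of the ubiquitin ligase that couples repair to transcription, also on chromosome 5, had 6.66 and 6.42 in CD133+ against 7.15 and 7.21 in CD133- cells. Its groups did not overlap and all 4 of its probe sets were negative (-0.995 to -0.54), but the difference of -0.64 missed the threshold (SE 0.18, limma adjusted p = 0.102). ERCC1, which with ERCC4 forms the nuclease that cuts on the 5' side of a lesion and is studied as a marker of platinum response, had 8.63 and 8.88 in CD133+ against 8.67 and 8.83 in CD133- cells. Its difference was 0.003 (95% interval -0.30 to 0.31), with a sign that turned with centred arrays and in the deposited values. ERCC4 was at -0.61 (limma adjusted p = 0.151) on its brightest probe set and had the opposite sign on the other. The damage sensors XPC and DDB2 were at 0.31 and 0.13, the TFIIH helicases ERCC2 and ERCC3 at 0.25 and -0.06, the nuclease ERCC5 at 0.10, the scaffold XPA at -0.13 and the chromatin remodeller ERCC6 at -0.02, with limma adjusted p from 0.291 to 0.963.

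Damage signalling had 1 of 5 genes lower and 0 higher (20% called, against 3.65% of all genes), with 4 of 5 negative. RAD17, which loads the checkpoint clamp at damaged DNA (chromosome 5), had 7.29 and 7.66 in CD133+ against 8.39 and 8.43 in CD133- cells. It fell by 0.93 (SE 0.16, 1.91-fold, limma adjusted p = 0.0225), the largest negative difference among the 48 genes, and its 3 probe sets ran from -0.93 to -0.66. CHEK2, the kinase downstream of ATM, had 6.08 and 5.96 in CD133+ against 6.96 and 6.78 in CD133- cells. The groups did not overlap and the difference was -0.84 (SE 0.19), but it lay just above the threshold (limma adjusted p = 0.0580) and passed only in some settings, with 0.0497 on centred arrays, 0.0453 among genes above the median level and 0.0450 in the fit to probe-set means. CHEK1, the kinase downstream of ATR, had 8.97 and 8.64 in CD133+ against 9.33 and 9.09 in CD133- cells, and differed by -0.41 (SE 0.14, limma adjusted p = 0.165). Without CD133+ replicate 1 CHEK1 was at -0.57 (adjusted p = 0.0423), without CD133+ replicate 2 at -0.25 (adjusted p = 0.465), and over the mean of its probe sets at -0.22 (adjusted p = 0.478). The sensor kinase ATM had 8.43 and 8.24 in CD133+ against 8.49 and 8.12 in CD133- cells, with overlapping arrays and a difference of 0.03 (95% interval -0.33 to 0.40). ATR had 8.16 and 8.27 in CD133+ against 8.28 and 8.40 in CD133- cells, a difference of -0.13 (95% interval -0.42 to 0.17). With centred arrays and in the deposited values the sign of ATM turned, and 3 of its 6 probe sets were negative.

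None of the 10 homologous recombination and crosslink repair genes tested passed the threshold, while 4 had an unadjusted p under 0.05, 40% against 20.6% of all genes, and 7 were negative. RAD52, which anneals single strands, had 5.59 and 5.49 in CD133+ against 6.30 and 6.34 in CD133- cells. Its difference of -0.78 (SE 0.20) had a limma adjusted p of 0.0780, and 2 of its 4 probe sets had the opposite sign, up to 0.52, with a mean over the 4 of -0.13. FANCI, a subunit of the clamp that marks crosslinks, had 8.60 and 8.75 in CD133+ against 9.01 and 9.17 in CD133- cells. Its other 2 probe sets did not share the sign of the difference, -0.42 (SE 0.12, limma adjusted p = 0.103), and the mean over the 3 was -0.03. RAD50, the ATPase of the complex that holds broken ends, had 8.65 and 8.13 in CD133+ against 8.01 and 7.71 in CD133- cells. Its difference was 0.52 (SE 0.20, limma adjusted p = 0.183), with the 3 probe sets agreeing in sign, and its size depended on which CD133+ array was kept, with 0.26 without CD133+ replicate 1 (adjusted p = 0.501) and 0.79 without CD133+ replicate 2 (adjusted p = 0.0286). With centred arrays RAD50 was at 0.31 (adjusted p = 0.580). Its complex partners MRE11 and NBN were at -0.08 and -0.005. BRCA1 had 9.22 and 9.30 in CD133+ against 9.22 and 9.12 in CD133- cells, a difference of 0.09 (95% interval -0.15 to 0.33) that turned to -0.05 with centred arrays and to -0.03 with probe-set means. BARD1, the partner of BRCA1 and a gene of chromosome 2, was at -0.54 with non-overlapping groups (limma adjusted p = 0.140). The recombination genes PALB2, XRCC3 and XRCC2 were at -0.20, -0.23 and 0.25.

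None of the 8 genes of base excision, strand break and direct repair passed. At an unadjusted p under 0.05 there was 1, 12.5% against 20.6% of all genes. That gene was XRCC1, the scaffold of single-strand break repair, with 7.64 and 7.58 in CD133+ against 7.16 and 7.23 in CD133- cells. The groups did not overlap, and the difference was 0.42 (SE 0.15, limma adjusted p = 0.177), against 0.24 in the deposited values (adjusted p = 0.480) and 0.16 with centred arrays (adjusted p = 0.731). TOP1, the topoisomerase that irinotecan traps on DNA, had 11.21 and 11.06 in CD133+ against 10.92 and 11.12 in CD133- cells. Its arrays overlapped, and the difference of 0.11 had a 95% interval of -0.12 to 0.34, with the opposite sign on its other probe set (-0.22). TDP1, which frees DNA from trapped TOP1, had 7.16 and 6.74 in CD133+ against 6.87 and 6.79 in CD133- cells, a difference of 0.12 (95% interval -0.34 to 0.58). This sign turned with centred arrays and in the deposited values. PARP1, the strand break sensor, had 9.21 and 9.39 in CD133+ against 9.08 and 9.54 in CD133- cells, a difference of -0.01 (95% interval -0.37 to 0.35). MGMT, which removes alkyl groups from guanine, had 4.34 and 4.57 in CD133+ against 3.98 and 4.32 in CD133- cells, not far above the low-signal limit of 3.75, and a difference of 0.30 (95% interval -0.15 to 0.75). POLB, the gap-filling polymerase, had 9.05 and 9.03 in CD133+ against 8.78 and 8.90 in CD133- cells, a difference of 0.20 that its other 2 probe sets did not share and that was 0.12 in the deposited values and 0.04 with centred arrays. The ligases LIG1 and LIG3 were at -0.12 and -0.26.

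None of the 4 genes of translesion synthesis and of RPA, the protein that coats single-stranded DNA, passed, though the arrays of the clones did not overlap in any of them (51.6% of all genes) and 3 had an unadjusted p under 0.05 (20.6% of all genes). RPA1, its large subunit, had 10.08 and 10.34 in CD133+ against 10.62 and 10.55 in CD133- cells. It differed by -0.38 (SE 0.11, limma adjusted p = 0.1001) on its brightest probe set and by -0.12 over the mean of its 3 (adjusted p = 0.649). Without CD133+ replicate 1 RPA1 was at -0.25 (adjusted p = 0.220), and without CD133+ replicate 2 at -0.51 (adjusted p = 0.0139). RPA3, its small subunit on chromosome 7, had 10.26 and 10.52 in CD133+ against 10.05 and 10.12 in CD133- cells, and differed by 0.31 (SE 0.11, limma adjusted p = 0.166). Without CD133+ replicate 1 RPA3 was at 0.43 (adjusted p = 0.0383), without CD133+ replicate 2 at 0.18 (adjusted p = 0.502), and with centred arrays at 0.20 (adjusted p = 0.459). The sign of RPA1 was shared by 2 of its 3 probe sets. The bypass polymerases POLH and POLK were at -0.51 and -0.42. Only 2 of the 6 probe sets of POLH had its sign, and the mean over the 6 was -0.10.

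Probe sets of a gene often disagreed. Of the 32 genes with several probe sets, 12 had the same sign on all of them and 20 did not. Among the called genes, XRCC5, XRCC4 and RAD17 had the same sign throughout, PMS1 had 1 dissenting probe set, and CDK7 and POLM had 1 probe set each. The widest disagreements were those of NBN, from -1.003 to 0.12, PMS1, and RAD52, from -0.78 to 0.52.

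**Figure D3:**
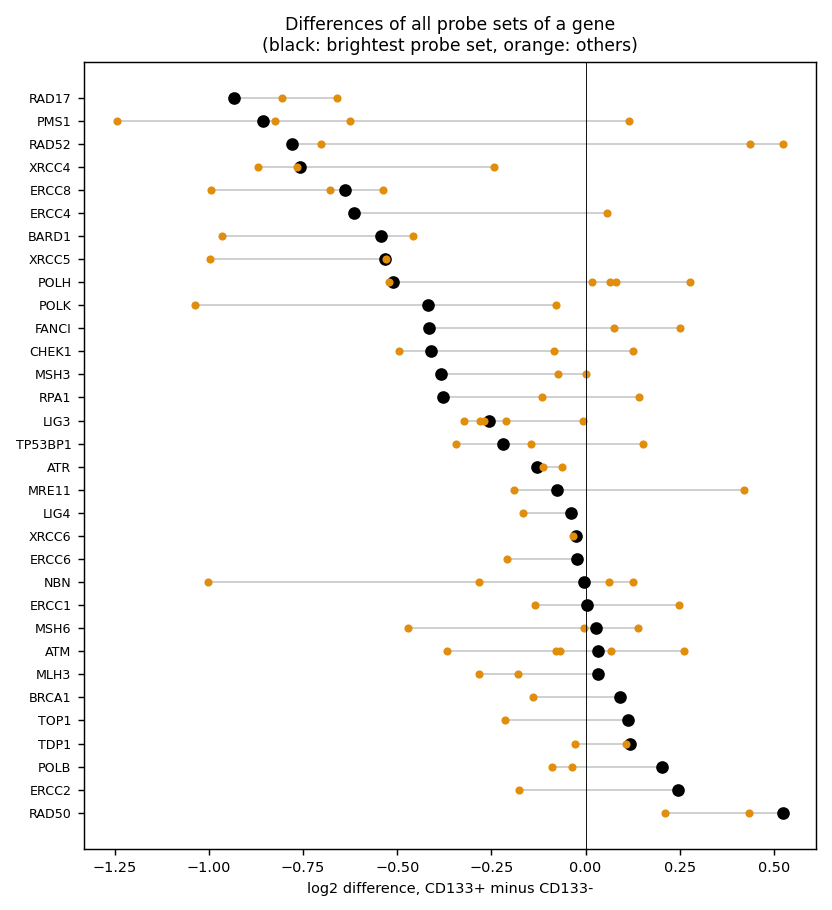
Log2 difference (CD133+ minus CD133-) of every probe set of the 32 repair genes with several, the brightest in black and used for the test, the others in orange, genes ordered by the brightest. RAD17, XRCC4, ERCC8, BARD1 and XRCC5 stay left of 0 on all probe sets, while those of RAD52 and POLH lie on both sides.

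The differences were also set against the position of the genes, which was not used to choose them. Chromosomes 2, 5 and 7 carried 15 of the 48 genes and all 6 called ones. Of the 33 genes on other chromosomes 0 passed, and 8 of them had an unadjusted p under 0.05, 24.2% against 20.6% of all genes. Calls over all genes were also more frequent on these chromosomes: 12.3% of the tested genes of chromosome 2, 8.94% of chromosome 5 and 7.53% of chromosome 7 were called, against 2.49% elsewhere. On chromosome 2, 123 genes were lower and 4 higher, on chromosome 5 59 were lower and 2 higher, and on chromosome 7 8 were lower and 48 higher. These 3 chromosomes were singled out with earlier results of these data known, so the contrast with the rest is a description.

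For each repair gene, the median difference of its 20 nearest tested genes, 10 on either side and not themselves members, was taken as the local level. Over all 48 genes the gene's own difference and the local level correlated with Pearson's r = 0.55 and Spearman's rho = 0.37. Over the 15 genes of chromosomes 2, 5 and 7 r was 0.86 and rho 0.76, and over the 33 others -0.14 and -0.16. The split follows chromosomes singled out with earlier results of these data known, so it gives no test of position. Local levels ran from -0.62 to 0.48 over the 15 genes and only from -0.20 to 0.35 over the 33. Genes that lie close together share neighbours, so these points are not independent, and all share the same 4 arrays. The local level was below -0.2 for 7 genes, all on chromosomes 2 and 5, which were ERCC8, MSH3, CDK7, XRCC4, RAD17, PMS1 and POLK. It was above 0.3 for 4 genes. For RPA3 and POLM on chromosome 7 it was 0.48, and for ERCC1 and ERCC2 on chromosome 19 it was 0.35 and 0.31, where ERCC1 itself was at 0.003 and ERCC2 at 0.25.

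**Figure D4:**
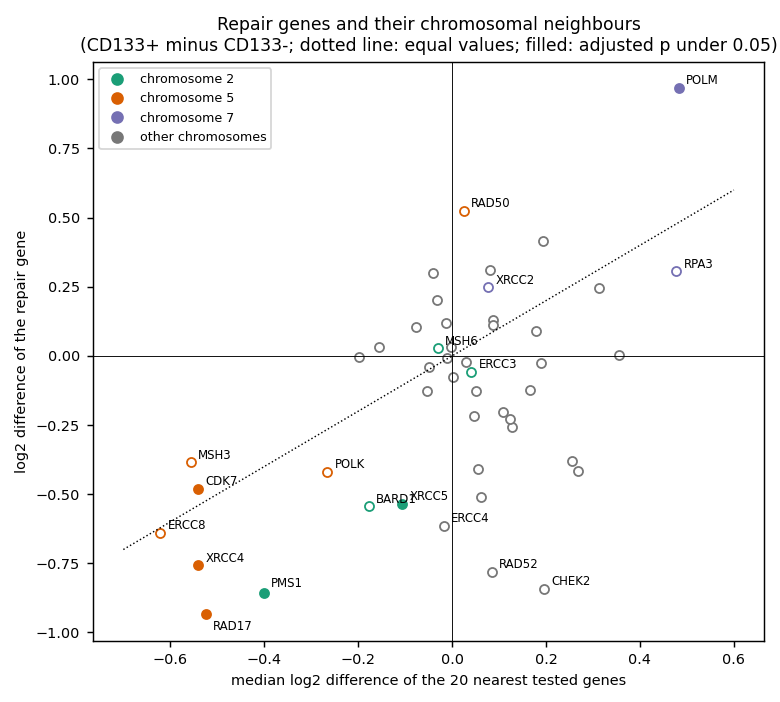
Log2 difference of each repair gene (vertical axis) against the median difference of its 20 nearest tested genes (horizontal axis), CD133+ minus CD133-, coloured by chromosome and filled where called. Of the 7 genes of chromosome 5 all but RAD50 gather at lower left and POLM at upper right, while CHEK2 and RAD52 are low beside neighbours near or above 0.

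On chromosome 5, 6 of the 7 repair genes lay in a stretch whose neighbours were lower in CD133+ cells, and all 6 were negative. CDK7 was at -0.48 beside neighbours at -0.54, of which 18 of 20 were negative and 6 called lower, and ERCC8 at -0.64 beside neighbours at -0.62. RAD17 was at -0.93, below its local level of -0.52, and ranked second lowest in its neighbourhood. XRCC4 was at -0.76 beside -0.54, with 10 of its 20 neighbours called lower. MSH3 at -0.38 beside -0.56 and POLK at -0.42 beside -0.27 did not pass themselves, though 8 and 6 of their neighbours did. RAD50, the 7th gene, lies farther along the chromosome, where the local level was 0.03 and none of the 20 neighbours was called, and its difference was 0.52.

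On chromosome 2, MSH6 and ERCC3 lay outside the lowered stretch, with local levels of -0.03 and 0.04 and differences of 0.03 and -0.06. PMS1 was at -0.86 beside -0.40, with 7 of 20 neighbours called lower. BARD1 and XRCC5, close to each other, were at -0.54 and -0.53 beside local levels of -0.18 and -0.11, with 6 and 4 neighbours called lower. On chromosome 7, POLM exceeded all 20 of its neighbours, each of which was positive and 6 of which were called higher. RPA3 was at 0.31 beside 0.48, with 4 neighbours called higher, and XRCC2, at the far end of the chromosome, was at 0.25 beside 0.08. Of the 12 genes that flank the 6 called members, 10 had the sign of their member and 1 was called. That gene flanks CDK7, whose neighbours were at -0.72 for KGD4 (limma adjusted p = 0.0125) and -0.82 for CCDC125 (adjusted p = 0.140). The flanks of XRCC4 were at -0.41 for TMEM167A and 0.05 for HAPLN1, those of PMS1 at -0.29 for ORMDL1 and -0.03 for AKAP19, and those of XRCC5 at -0.36 for TMEM169 and 0.13 for LINC01963. The flanks of RAD17 were at -0.37 for AK6 and -0.40 for MARVELD2, and those of POLM at 0.30 for PGAM2 and 0.49 for AEBP1. These neighbours were named after their values were seen.

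**Figure D5:**
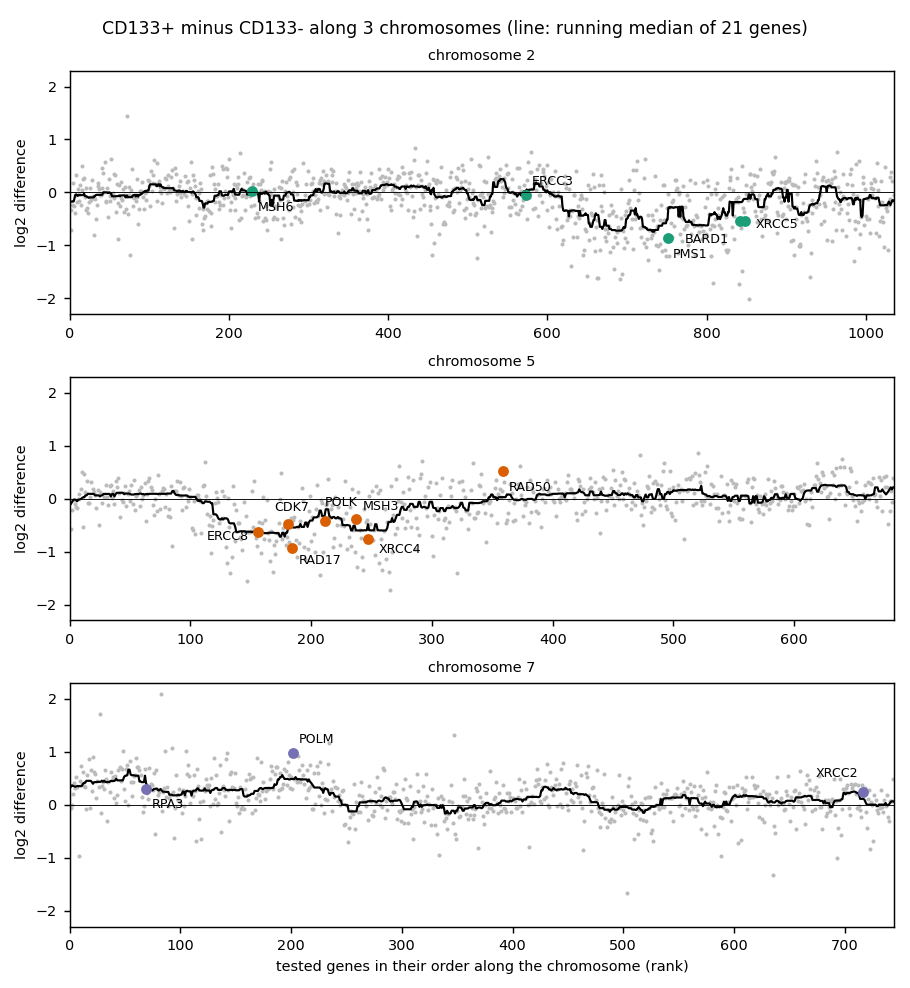
Log2 difference (CD133+ minus CD133-) of every tested gene in its order along chromosomes 2, 5 and 7 (grey points), with the running median of 21 genes (line) and the repair genes (coloured). The line dips below 0 around PMS1 on chromosome 2 and between ERCC8 and XRCC4 on chromosome 5, and lies above 0 around RPA3 and POLM on chromosome 7.

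Several genes were low on their brightest probe set without low neighbours. CHEK2 was at -0.84 beside a local level of 0.20 and was the lowest of its neighbourhood, as were RAD52 at -0.78 beside 0.08 and POLH at -0.51 beside 0.06. FANCI at -0.42 beside 0.27, RPA1 at -0.38 beside 0.25, CHEK1 at -0.41 beside 0.06 and ERCC4 at -0.61 beside -0.02 each ranked second lowest. None of these 7 passed the threshold over all genes. CHEK2 had 1 probe set, and the other genes had probe sets of both signs. Over the mean of probe sets RAD52 was at -0.13, POLH at -0.10, FANCI at -0.03, RPA1 at -0.12, CHEK1 at -0.22 and ERCC4 at -0.28. In the other direction RAD50, at 0.52 beside 0.03, was the highest of its neighbourhood.

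The rest of the repair machinery was followed in 85 further genes, of which 74 were tested. Of these, 4 fell and 0 rose, 5.41% against 3.65% of all genes, with a median difference of -0.10 and 48 negative. CCNH, cyclin H, the partner of CDK7 and also a gene of chromosome 5, had 9.72 and 9.86 in CD133+ against 10.56 and 10.59 in CD133- cells, and fell by 0.78 (SE 0.09, limma adjusted p = 0.00936). MNAT1, the assembly factor of that kinase on chromosome 14, was at 0.19 (95% interval -0.06 to 0.45), a gene named after its value was seen. GTF2H1, a core subunit of TFIIH on chromosome 11, fell by 0.49 (SE 0.10, limma adjusted p = 0.0389). That call was lost with centred arrays, in the deposited values and with probe-set means. UNG, the glycosylase that removes uracil from DNA, had 7.36 and 7.19 in CD133+ against 8.05 and 8.11 in CD133- cells and fell by 0.80 (SE 0.15, limma adjusted p = 0.0281). ALKBH2, which reverses alkylation damage, fell by 0.78 (SE 0.17, limma adjusted p = 0.0498), close to the threshold. It was not called with probe-set means or without the filter on low signals. Both UNG and ALKBH2 lie on chromosome 12. Of the 4, CCNH alone was called without CD133- replicate 1 or replicate 2, and CCNH and GTF2H1 without CD133+ replicate 2.

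Of 18 tested transcripts that p53 induces after damage, among them the members XPC, DDB2 and POLH, 0 passed in limma. Their median was -0.13, and 5 had an unadjusted p under 0.05, 27.8% against 20.6% of all genes. The smallest adjusted p, 0.0508, was that of TNFRSF10B, a death receptor, at 0.38, which passed among genes above the median level and, with GADD45A, without CD133+ replicate 2. CDKN1A, the cell cycle inhibitor best known among these targets, was at 0.07 (95% interval -0.23 to 0.37) and was named after its value was seen. Of 26 proliferation genes 1 fell, 3.85% against 3.65% of all genes, a share at the background, with a median of -0.08 and 17 negative. CCNB1, a mitotic cyclin of chromosome 5, had 10.48 and 10.32 in CD133+ against 10.93 and 10.90 in CD133- cells and fell by 0.51 (SE 0.09, limma adjusted p = 0.0231). That call was lost without CD133- replicate 1 and without CD133- replicate 2. The part of proliferation in the differences of CHEK1, RPA1 or FANCI was not tested.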

How the data were processed

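The deposited table held log2 signals of 54675 probe sets on 4 arrays, made by the authors with Affymetrix Expression Console per the submitters' processing notes. The background correction, normalization, summarisation and version are not given in the sources used here. After the 62 control probe sets were set aside, the values were quantile normalized, since the array medians differed by 0.144, above a limit of 0.1. Probe sets naming 1 gene numbered 41091, for 19777 genes, of which 19735 matched RefSeq (GRCh38.p14) by gene ID. Each gene was represented by its brightest probe set over the 4 arrays, and the 3956 genes in the lowest 20%, under 3.75, were left out. The 15821 others entered limma (version 3.58.1, R 4.3.3; lmFit, eBayes with a trend, Benjamini-Hochberg over all genes), checked on simulated data. Precision is limited by the 4 arrays, with a median standard error of 0.178 log2 units, and the smallest exact two-sided permutation p for 1 gene is 0.333. Alternatives were no trend, centred or deposited values, other level filters, probe-set means, a replicate block, fewer or more neighbours, and leaving out each array, where the lone array of a clone is assumed to vary like the other clone's.

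The members and lists were chosen with earlier results of these data known. Full values were given for members that were called, the 2 with the smallest p in each of 7 roles, the 3 highest and 3 lowest, and 13 always given, of which BRCA2 had no value, 27 members in all, and for called genes of the other lists.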

Additional observations from a re-analysis of the deposited data

How the results depend on the processing

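Of the 6 called members, PMS1 and POLM passed in 8 of 11 alternatives each, as did CDK7, XRCC5 and RAD17, and XRCC4 passed in 5. No called member changed sign. The count of 6 was 5 to 7 with centred arrays, in the deposited values, with probe-set means and with other level filters, 0 without the trend of variance and 0 to 8 without 1 array at a time. Centring gave 0 higher and 6 lower members, and 11.2% of called genes higher over all genes, against 35.9% in the main setting. The median member difference of -0.07 was -0.29 with centred arrays and -0.21 in the deposited values, where the median of all genes was -0.05 and 0.03 in place of 0.06, so that relative to all genes it was -0.12 in the main setting and -0.24 in both of these. The correlation with neighbours was 0.62 with probe-set means and 0.49 to 0.60 without 1 array at a time.

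Further repair genes called numbered 0 without the trend, 2 with probe-set means and 1 to 4 without 1 array. The p53 targets called numbered 1 above the median level and 0 to 2 without 1 array, and the proliferation genes 0 without the trend and 0 to 2 without 1 array. The replicate numbers appear in both clones, but there are only 2 pairs and no label ties them, so the main fit did not pair the arrays. The deviations of same-numbered arrays correlated at 0.429 over genes. Whether same-numbered arrays share a batch was not tested. With the replicate number as a block 18 members, 10 further repair genes, 3 p53 targets and 7 proliferation genes were called, with 3030 over all genes.

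Among the 27 members given in full, signs turned for 8 near 0, none past the threshold. With centred arrays ERCC1 was at -0.17, TDP1 at -0.12, MSH6 at -0.14, BRCA1 at -0.0544 and ATM at -0.17. In the deposited values ERCC1 was at -0.0951, TDP1 at -0.0443, MSH6 at -0.0580 and ATM at -0.0911. With probe-set means TOP1 was at -0.0517, MSH6 at -0.0765, BRCA1 at -0.0251 and ATM at -0.0255. Without 1 array at a time ERCC1 ran from -0.12 to 0.13, PARP1 from -0.24 to 0.22, TDP1 from -0.0912 to 0.33, MSH6 from -0.0376 to 0.0926, XRCC6 from -0.13 to 0.0768 and ATM from -0.15 to 0.22. The cause was not tested.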
